A study of Rattus norvegicus with 10 samples.

Results

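Autophagy delivers cell contents to the lysosome for breakdown, and the genes examined here encode the machinery of both. In the deposited expression table of fetal rat hearts, 68 of 18025 listed genes have symbols that begin with Atg, Ulk, Cts, Lamp or Atp6v or are 1 of Becn1, Map1lc3a, Map1lc3b, Gabarap, Gabarapl1, Gabarapl2, Sqstm1 and Tfeb. Of these, 63 had a mean of at least 0.1 FPKM (read fragments normalized to transcript length and library size) over the 10 libraries and are described below as the autophagy and lysosome genes. The other 5, which were not tested, were Atp6v0a4, Atp6v0d2, Atp6v1e2, Ctsg and Ctsj. The nearest genes on either side of the 0.1 FPKM limit were Lamp3 at 0.101 and Atg9b at 0.102 just inside, and Atp6v1e2 at 0.0655 and Atp6v0a4 at 0.0546 just outside.

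All libraries came from hearts of wild-type Sprague-Dawley fetuses collected on embryonic day 19.5, from mothers mated with normoglycemic males. The HG (hyperglycemia) group had mothers given streptozotocin, a toxin of the insulin-producing beta cells, by daily intraperitoneal injection on 3 days at 3 months of age, with non-fasting glucose above 16 mM. The CON (control) group had mothers injected with the citric acid buffer alone. The study's methods place the injections after mating, whereas its introduction speaks of hyperglycemia induced before pregnancy, so the start of fetal exposure is unclear. There were 5 libraries per group, and the question was how the fetal cardiac transcriptome differed between offspring of hyperglycemic and control mothers. The model is one of chemically induced maternal diabetes, and neither the sex of the fetuses nor the mother of each heart is given in the labels, so the p-values measure the spread between these libraries, some of which may share a litter.

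In autophagy, the ULK kinase complex starts a membrane that is fed by the Beclin 1 lipid kinase complex and the scramblase ATG9, and conjugation enzymes attach the small ubiquitin-like ATG8 proteins (LC3 and GABARAP) to its lipids. The closed autophagosome fuses with the lysosome, whose lumen is acidified by the V-ATPase proton pump, lined by LAMP glycoproteins and filled with proteases, the cathepsins. TFEB, a basic helix-loop-helix transcription factor, binds a palindromic element called CLEAR in the promoters of many lysosomal genes, and in the heart autophagy is best known for the turnover of mitochondria and of protein aggregates.

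The CLEAR element has TCACGTGA at its centre, so these letters, which read the same on both strands, were searched in the RefSeq promoters of build GRCr8 (250 bases before to 50 after the start of each gene). A promoter was matched for 53 of the 63 genes. The element stood in 5 of them (9.43%), against 1.53% of the 13372 promoters of tested genes and 0.777% of all 33465 promoters. Its shorter core, CACGTG, which overlaps every such match, stood in 8 of the 53 promoters (15.1%), against 8.6% of promoters of tested genes and 6.42% of all promoters. Ctsf, Atg14 and Atg5 held the shorter core without the flanking bases. The 5 windows are shown because they carry the letters through which TFEB is known to act, with TCACGTGA in capitals and each sequence on the strand of its gene.
Ctsd (GRCr8 chr1:206968799-206968858, minus strand, element starting 11 bases before the start): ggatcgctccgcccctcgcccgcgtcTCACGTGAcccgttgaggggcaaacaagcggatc
Lamp1 (GRCr8 chr16:83075069-83075155, minus strand, elements starting 66 and 39 bases before the start): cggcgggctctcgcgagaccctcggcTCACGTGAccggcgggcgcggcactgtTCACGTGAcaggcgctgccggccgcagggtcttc
Atg3 (GRCr8 chr11:69159264-69159323, minus strand, element starting 17 bases before the start): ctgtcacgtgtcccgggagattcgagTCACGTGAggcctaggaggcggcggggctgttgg
Atp6v0d1 (GRCr8 chr19:50357268-50357327, minus strand, element starting 53 bases before the start): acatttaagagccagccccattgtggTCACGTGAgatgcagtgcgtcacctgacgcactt
Atp6v0e1 (GRCr8 chr10:17007107-17007159, minus strand, element starting 23 bases after the start): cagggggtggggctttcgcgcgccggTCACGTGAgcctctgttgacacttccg
Of these 5 genes, Ctsd and Lamp1 were lower in HG and the other 3 did not pass the test on deposited FPKM, as described below. A match is a stretch of letters and not a measured binding site.

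The libraries were alike in depth. Whole read numbers recovered from the FPKM steps gave library totals of 17647158 to 18247127 in CON and 16680028 to 19118401 in HG. The tissue carried the markers of heart muscle, with the 13 cardiomyocyte markers summing to 34153 to 35918 FPKM in CON and 29231 to 33732 in HG. By the test described below, 9 of the 13 were lower in HG and 1, Nppa, was higher (log2 fold change 0.71). The shares over all tested genes were 11.8% lower and 28.4% higher. In these bulk samples fewer cells of a type and less RNA per cell cannot be told apart. The 9 fibroblast markers had 3 higher and 4 lower, and the 7 endothelial markers 2 higher and 0 lower. Red cell markers were lower in HG for 9 of 10 genes tested, and hemoglobin genes took 0.605 to 1.14% of reads in CON and 0.483 to 0.676% in HG. CON replicate 3 stood apart in the 7 liver markers, which summed to 80.7 FPKM there, to 3.15 to 8.73 in the other CON libraries and to 1.33 to 2.71 in HG. Without that library, 7 autophagy and lysosome genes were called higher and 12 lower.

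As a set, the autophagy and lysosome genes stood at higher levels than the typical tested gene and moved by small amounts in both directions. Their means had a median of 17.1 FPKM, against 7.26 over all tested genes, with 7 genes at or above 100 FPKM and 9 under 1. The coefficient of variation between libraries of a group had a median of 6.2% in CON and 6.72% in HG. Of the 63 fold changes, 59 lay between -0.5 and 0.5 on the log2 scale. FPKM levels depend on the length used for each gene, and for Atg7 and Atg10 that length was 15383 and 14808 bases, against a median of 2151, so their levels below 1 FPKM rested on 143 to 184 and 183 to 258 reads per library.

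Differences were tested with limma on log2(FPKM + 0.1), with Benjamini-Hochberg adjustment over the 14542 genes of the table that reached the 0.1 FPKM limit, and a gene was called where its adjusted p was under 0.05. By this rule 23 of the 63 genes were called (36.5%), against a background of 40.1% of all tested genes. Of the 63, 10 were higher in HG (15.9%, background 28.4%) and 13 were lower (20.6%, background 11.8%). The median log2 fold change was -0.05 for these genes and 0.09 for all tested genes. None of the 63 passed the stricter rule of an adjusted p under 0.05 with an absolute log2 fold change above 1, which 1.94% of all tested genes passed. The values of the groups did not overlap for 3 genes that were higher in HG (background 19.3%) and for 9 that were lower (background 8.12%). Lamp3 is counted among these 13 and these 9. It reached the 0.1 FPKM limit only through its CON libraries, so its difference is no evidence about the set.

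The split between higher and lower depended on how the libraries were scaled to each other. Median-of-ratios factors, which set the typical gene to the same level in every library, were 0.964 to 0.972 in CON and 1.01 to 1.06 in HG, with no overlap (two-sided exact permutation test, p = 0.00794, the smallest that 5 against 5 libraries can give). With these factors 25 of the 63 genes were called (39.7%, background 33.2%), 2 of them higher (3.17%, background 15.6%) and 23 lower (36.5%, background 17.5%). The median log2 fold change then was -0.14 for these genes and 0.01 for all tested genes. On both scales the same 15 genes were called in the same direction, a count whose share over all tested genes is not given here. Atp6v1a and Gabarapl1 were higher on both. The 13 that were lower on both were Map1lc3a, Map1lc3b, Gabarap, Gabarapl2, Tfeb, Atg4d, Atg9a, Lamp1, Lamp3, Ctsd, Ctsf, Atp6v0a2 and Atp6v1g2. The limit named above for Lamp3 holds here too. A further 8 genes were higher on deposited FPKM alone (Atg12, Ctsb, Ctsc, Ctsk, Ctsz, Lamp2, Sqstm1 and Ulk2). With the factors alone 10 were lower, of which 7 encode V-ATPase subunits (Atp6v0b, Atp6v0c, Atp6v0d1, Atp6v0e1, Atp6v1b2, Atp6v1d and Atp6v1e1) and the others are Atg13, Ulk1 and Ctsa.

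**Figure D1:**
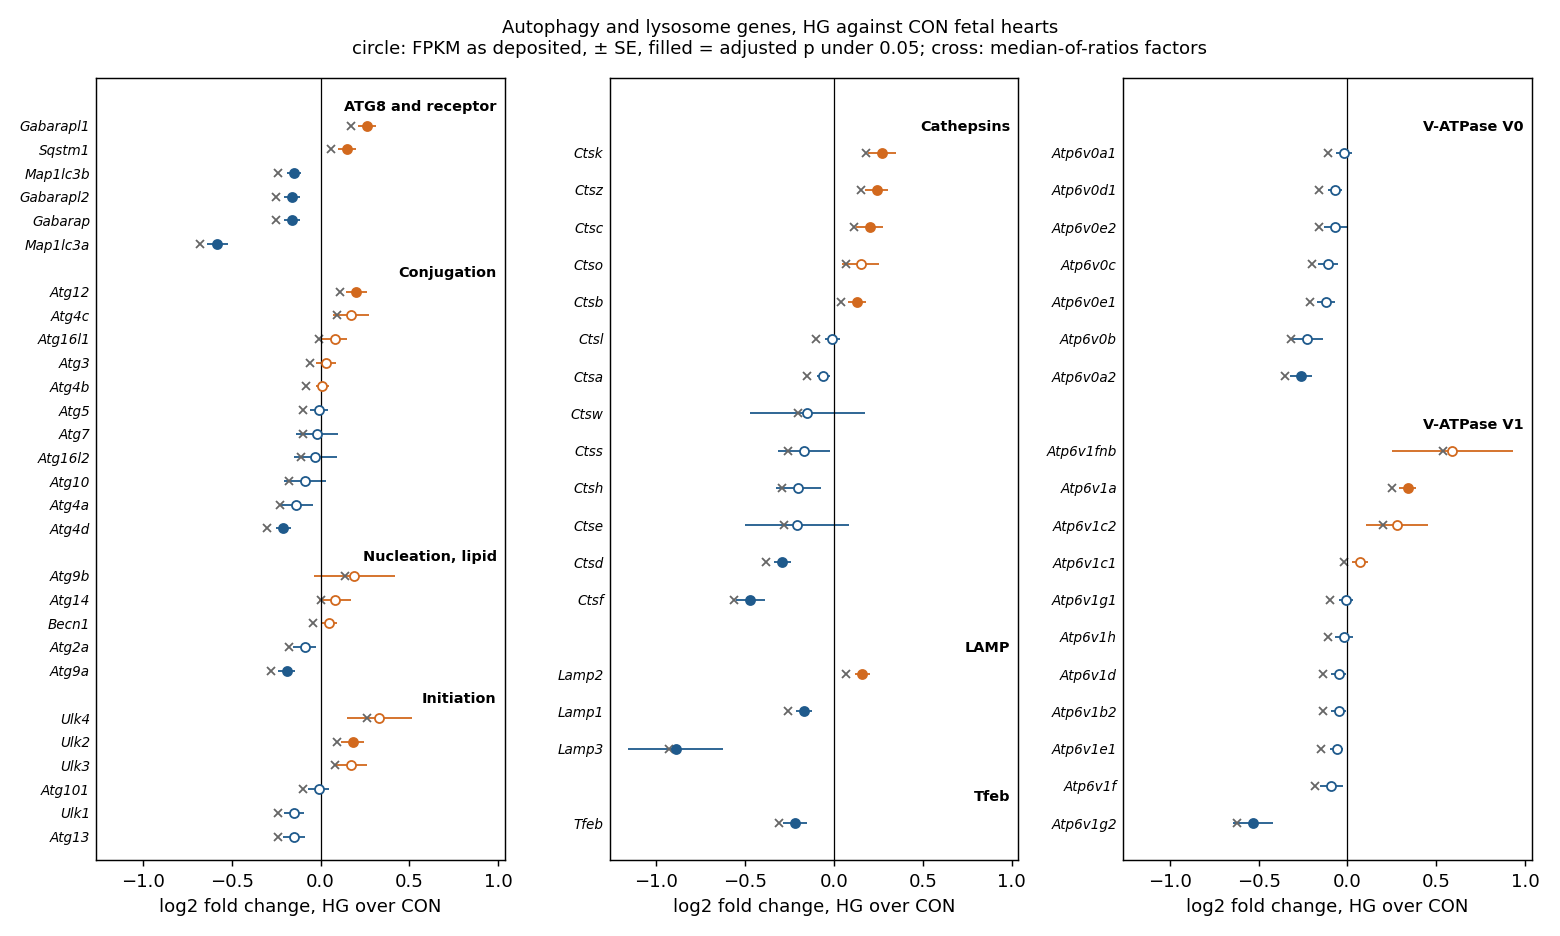
Log2 fold change of HG over CON for each of the 63 genes, grouped by role, with circles and standard errors for deposited FPKM (filled where the adjusted p was under 0.05) and crosses for median-of-ratios factors. Map1lc3a and Atp6v1g2 lie at -0.58 and -0.53, Atp6v1a at 0.34, and all other called genes except Lamp3 within 0.5 of 0.

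The lowest adjusted p of the 63 genes belonged to Map1lc3a of the ATG8 family. ATG8 proteins coat the growing autophagosome membrane and tether cargo receptors to it. All 5 family genes and the receptor gene Sqstm1 were called on deposited FPKM, 4 lower and 2 higher in HG (background 11.8% and 28.4%). With median-of-ratios factors 4 were lower and 1 higher (background 17.5% and 15.6%). Gabarapl1 went up while its 4 relatives went down. Summed over the 5 ATG8 genes and Sqstm1, the level was 524 ± 29.4 FPKM in CON and 454 ± 12.5 in the 5 HG libraries (mean ± SD), with lowest and highest libraries of 494 and 565 in CON and of 439.5 and 469 in HG.

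Map1lc3a, which encodes LC3A, had 144, 144, 124, 118 and 127 FPKM in CON replicates 1 to 5 and 83.2, 92.8, 85.5, 84.5 and 90 FPKM in HG replicates 1 to 5. Every HG library lay below every CON library. The log2 fold change was -0.58 ± 0.0585 (SE), the mean fell by 33.5% (adjusted p = 1.79e-05, limma), and the change was -0.68 with median-of-ratios factors. The level rested on 1437 to 2539 reads per library.

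Its close relative Map1lc3b, which encodes LC3B, the form most used as an autophagosome marker, had 77.6, 72.7, 83.8, 74.9 and 74.7 FPKM in CON and 68.6, 71.6, 66.2, 70.1 and 69 in HG. The groups again did not overlap, but the change was smaller at -0.15 ± 0.0413 (adjusted p = 0.0126, limma). Of the FPKM summed over the pair of LC3 genes, Map1lc3a took 59.7 to 66.4% in CON and 54.6 to 56.6% in HG.

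Gabarap, the founding gene of the GABARAP branch, was the most abundant of the family, with 233, 218, 216, 201 and 198 FPKM in CON and 185, 192, 184 and 190.3 in HG replicates 1, 2, 3 and 5. HG replicate 4 was the highest HG library and reached into the CON range, between CON replicates 4 and 5. Its fold change was -0.16 ± 0.0459 (adjusted p = 0.0147, limma), and the call was lost with quantile normalization (adjusted p = 0.0694). Gabarapl2, also known as GATE-16, had 42.8, 38.7, 38.2, 37.3 and 36.7 FPKM in CON and 32.9, 34.5, 34.7, 36.9 and 34.4 in HG. Again only HG replicate 4 overlapped the CON libraries, and the change was -0.16 ± 0.0468 (adjusted p = 0.0174, limma).

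Gabarapl1, whose protein is closest to GABARAP, ran the other way, with 19.7, 20.5, 17.3, 17.4 and 19.3 FPKM in CON and 22.7, 22.6, 23.2, 21.9 and 22.3 in HG. All HG libraries were above all CON libraries. The log2 fold change was 0.26 ± 0.0516 (adjusted p = 0.00186, limma), and 0.17 with median-of-ratios factors (adjusted p = 0.0247). Within the family Gabarapl1 took 3.61 to 4.25% of the summed FPKM in CON and 5.29 to 5.89% in HG, while Map1lc3a took 25.9 to 29.1% in CON and 20.4 to 22.4% in HG. These shares do not depend on how libraries are scaled.

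Sqstm1 encodes p62, a receptor that links ubiquitinated cargo to LC3 and is itself degraded by autophagy. It had 49.2, 44.4, 44.5, 46.2 and 42.8 FPKM in CON and 47.4, 55.3, 51.5, 51 and 47.7 in HG. CON replicate 1 lay inside the HG range and the other 4 CON libraries below it. The change of 0.15 ± 0.0502 passed the test on deposited FPKM (adjusted p = 0.0273, limma) and not with median-of-ratios factors (0.06, adjusted p = 0.391). Leaving out any 1 of CON replicates 2, 3 and 5 or HG replicates 2 and 3 also ended the call, with adjusted p-values of 0.054 to 0.065.

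**Figure D2:**
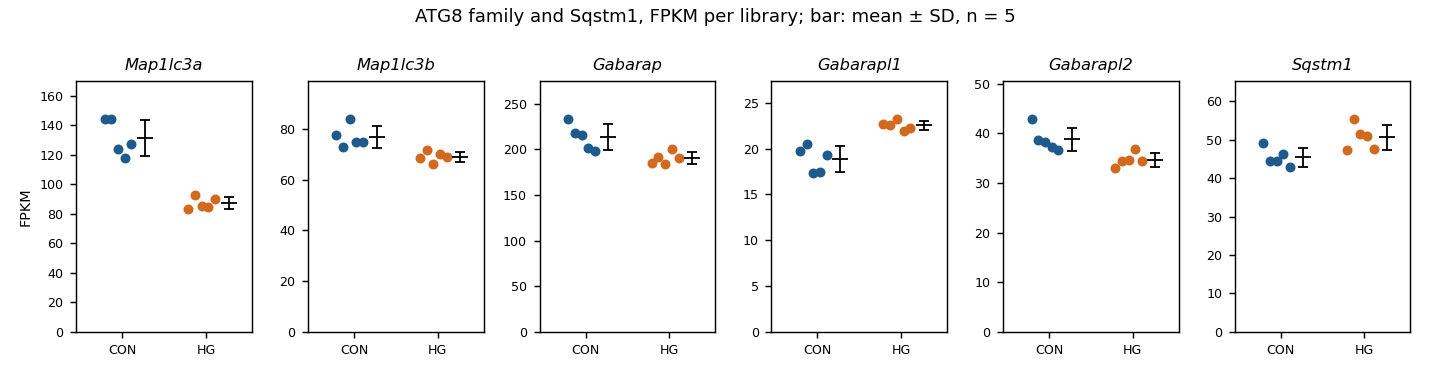
FPKM of the 5 ATG8 family genes and Sqstm1 in each of the 5 CON and 5 HG libraries (points), with mean ± SD beside them and each axis starting at 0. Map1lc3a falls from 118 to 144 FPKM in CON to 83.2 to 92.8 in HG, while Gabarapl1 goes from 17.3 to 20.5 up to 21.9 to 23.2.

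Tfeb, the transcription factor that drives lysosomal and autophagy genes through CLEAR elements, had 8.24, 7.47, 8.92, 8.15 and 8.33 FPKM in CON and 6.66, 7.71, 7.06, 7.53 and 6.35 in HG. CON replicate 2 lay inside the HG range. The log2 fold change was -0.22 ± 0.0668 (adjusted p = 0.0207, limma), and -0.31 with median-of-ratios factors. Without CON replicate 3, the library with the liver markers, the change was -0.19 with an adjusted p = 0.0545. Its relative Tfe3, which binds the same element, was higher in HG at 7.28 ± 0.401 FPKM against 6.11 ± 0.466 (mean ± SD, 5 libraries each). Its change was 0.25 (adjusted p = 0.00794, limma), and 0.16 with the factors (adjusted p = 0.0697).

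Of the 3 LAMP genes, which encode heavily glycosylated proteins of the lysosomal membrane, Lamp1 was lower, Lamp2 higher and the scarcely detected Lamp3 lower in HG. Lamp1 had 114, 118, 129, 118 and 116 FPKM in CON and 109, 110.2, 105, 106 and 96.4 in HG. The groups did not overlap, and the change was -0.17 ± 0.0451 (adjusted p = 0.00982, limma). Lamp2, which is mutated in Danon cardiomyopathy, had 18.9, 20, 19.1, 19.4 and 18 FPKM in CON and 20, 22.3, 21, 22 and 21.8 in HG. The highest CON and the lowest HG library met at 20 FPKM. The change was 0.16 ± 0.0436 (adjusted p = 0.0099, limma), and 0.07 with an adjusted p = 0.22 with median-of-ratios factors. Lamp1 made up 85.5 to 87.1% of the FPKM summed over Lamp1 and Lamp2 in CON and 81.5 to 84.5% in HG, so the balance of this pair differed with no overlap on either scale.

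Lamp3, which encodes the LAMP of mature dendritic cells, had 0.272, 0.104, 0.15, 0.229 and 0.0642 FPKM in CON and 0.0396, 0.0618, 0, 0.0429 and 0.0454 in HG. These values rest on 0 to 13 reads per library, 39 in all of CON and 9 in all of HG. Its fold change of -0.89 ± 0.267 (adjusted p = 0.019, limma) comes from a gene that reached the limit only through its CON libraries, so a difference had to follow, and without CON replicate 1 it was -0.75 (adjusted p = 0.0524).

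The cathepsins, the proteases of the lysosome, moved both ways, with 4 of 13 higher and 2 lower in HG on deposited FPKM. With median-of-ratios factors 0 were higher and 3 lower. The background over all tested genes was 28.4% higher and 11.8% lower on deposited FPKM, and 15.6% and 17.5% with the factors. Their summed level was 563 ± 18.9 FPKM in CON and 557 ± 21.8 in the 5 HG libraries (mean ± SD). Ctsb, Ctsl, Ctsd and Ctsa made up 80 to 82.8% of that sum in CON and 80.2 to 81.8% in HG. What differed was the make-up of the sum.

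Ctsd encodes cathepsin D, the main aspartic protease of lysosomes, and was named after its values were seen, because of the element in its promoter. It had 106, 95.3, 102, 91.3 and 99.3 FPKM in CON and 77, 88.2, 80.6, 81.7 and 77.6 in HG. Every HG library was below every CON library. The change was -0.29 ± 0.0487 (adjusted p = 0.000683, limma), and -0.38 with the factors. Among the cathepsins its share was 16.6 to 18.3% of the summed FPKM in CON and 13.9 to 15.3% in HG.

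Ctsf, a cysteine cathepsin, had the largest fall of the class, with 13.4, 13.1, 12.7, 11.3 and 12.1 FPKM in CON and 8.56, 10.8, 8.97, 7.78 and 9.2 in HG. The groups did not overlap. The change was -0.47 ± 0.0797 (adjusted p = 0.000678, limma), and the mean fell by 27.7%.

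On the other side stood Ctsk, the collagen-degrading cathepsin best known from osteoclasts, with 15.8, 17.7, 15.1, 13.1 and 16.1 FPKM in CON and 17.6, 18.6, 19.1, 17.1 and 21.3 in HG. CON replicate 2 lay within the HG range. The change was 0.27 ± 0.0786 (adjusted p = 0.0164, limma) on deposited FPKM and 0.18 (adjusted p = 0.0821) with median-of-ratios factors. Ctsb, the most abundant cathepsin here, had 163, 153, 139, 148 and 136 FPKM in CON and 159, 169.7, 162, 162 and 156 in HG. Only CON replicate 1 reached the HG range. The change of 0.13 ± 0.0489 was just past the threshold (adjusted p = 0.0461, limma) and was lost in 13 of 22 alternative settings. Ctsz (0.24, adjusted p = 0.01) and Ctsc (0.20, adjusted p = 0.0497) were the other cathepsins called higher on deposited FPKM, and neither call held with the factors. The call for Ctsz was lost in that 1 alternative setting, whereas the call for Ctsc was held in 4 of 22.

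The remaining cathepsins did not pass the test on deposited FPKM. With median-of-ratios factors Ctsa alone of them was called, and was lower (-0.15, adjusted p = 0.0109, limma). Ctsl, a cysteine protease second in level to Ctsb, had 130.1 to 135 FPKM in CON and 124 to 143 in HG, and its 95% interval of the log2 fold change ran from -0.10 to 0.08. Ctss, a cathepsin of antigen-presenting cells, had 3.91 to 6.17 FPKM in CON and 3.48 to 5.64 in HG. The 13 markers of macrophages, cells rich in lysosomal proteases, summed to 49.5 to 64.6 FPKM in CON and 58.1 to 75.7 in HG, with 3 higher and 2 lower, and their part in the cathepsin values was not tested. Neutrophil and mast cell markers summed to 11.6 to 13.4 FPKM in CON and 6.71 to 10.9 in HG. Most of that sum was the single gene Kit, with means of 8.83 FPKM in CON and 6.23 in HG. Of these markers, Mpo, Elane and Cpa3 were below the 0.1 FPKM limit, as was Ctsg, the cathepsin of those cells.

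**Figure D3:**
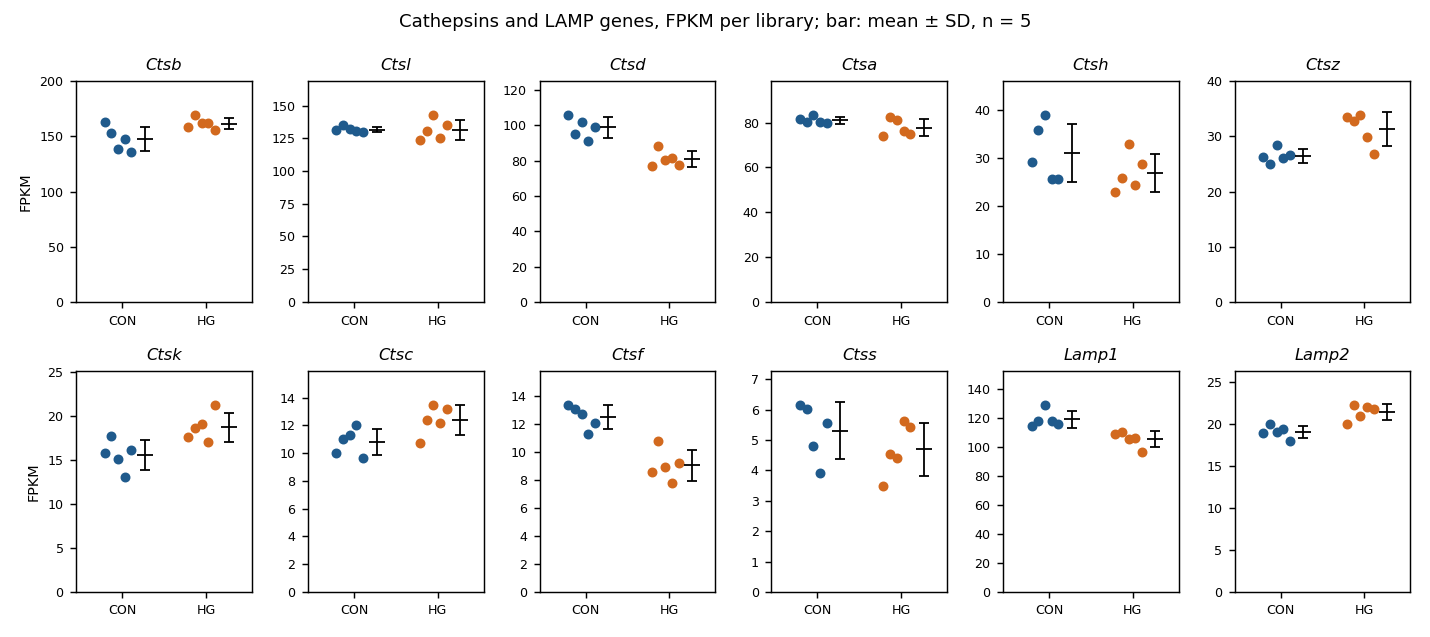
FPKM of the 10 most abundant cathepsins and of Lamp1 and Lamp2 in each library (points), with mean ± SD beside them and each axis starting at 0. Ctsd, Ctsf and Lamp1 show HG libraries entirely below CON, whereas Ctsl has its CON libraries (130.1 to 135 FPKM) within the HG range (124 to 143).

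Among the V-ATPase genes, whose products pump protons into the lysosome, 3 passed the test on deposited FPKM. Of these, 2 were less abundant than another form of the same subunit. The pump has a cytosolic V1 sector that splits ATP and a membrane V0 sector that carries the protons. The 11 tested genes with Atp6v1 symbols include Atp6v1fnb, a neighbour of Atp6v1f that is no subunit. This leaves 17 subunit genes under the symbol rule over both sectors. Of these 17, 1 was higher and 2 were lower in HG, and 14 had a fold change below 0. With median-of-ratios factors 1 was higher and 9 were lower. All 7 V0 genes lay below 0 on both scales, but only 1 of them was called on deposited FPKM and 5 with the factors. The share of all tested genes with a fold change below 0 is not given here. Of all tested genes, 28.4% were higher and 11.8% lower on deposited FPKM, and 15.6% and 17.5% with the factors.

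Atp6v1a encodes the catalytic A subunit and was the called gene with the largest increase, at 15.5, 15.5, 15.5, 14.1 and 13.8 FPKM in CON and 18.9, 17.9, 19.5, 19.2 and 18.9 in HG. All HG libraries were above all CON libraries. The change was 0.34 ± 0.0477 (adjusted p = 0.000174, limma), a rise of 26.9% in the means, and 0.25 with the factors. Atp6v1b2, whose B subunit alternates with A in the V1 ring, had 38.3 to 41.9 FPKM in CON and 36.7 to 41.6 in HG, with a change of -0.05 (adjusted p = 0.413, limma). The gene for the A subunit was thus the only V1 gene called higher, on either scale.

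Atp6v1g2 encodes a form of the stalk subunit G that is best known from neurons. Its values were 7.9, 9.1, 5.95, 8.41 and 6.79 FPKM in CON and 5.31, 5.3, 5.24, 5.94 and 4.36 in HG. CON replicate 3 and HG replicate 4 nearly met, at 5.95 and 5.94, and the other CON libraries lay clear above. The change was -0.53 ± 0.113 (adjusted p = 0.00296, limma), from 124 to 283 reads per library. The widely expressed form Atp6v1g1, at 114 to 129 FPKM in CON and 114 to 124 in HG, had a 95% interval of -0.10 to 0.07. Atp6v1g2 was 4.74 to 6.85% of the FPKM of the G pair in CON and 3.42 to 4.56% in HG.

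In V0, Atp6v0a2, a form of the large membrane subunit a found on Golgi and endosomes, had 11.5, 10.3, 11.8, 12.1 and 10.3 FPKM in CON and 9.32, 9.48, 9.91, 8.57 and 9.49 in HG. The groups did not overlap, and the change was -0.26 ± 0.061 (adjusted p = 0.0055, limma). Of the other a forms under the symbol rule, Atp6v0a4 was below the 0.1 FPKM limit. Atp6v0a1 had 25.8 to 30.5 FPKM in CON and 26.8 to 28.3 in HG, with an interval of -0.13 to 0.08. Atp6v0c, which encodes the ring subunit that carries the proton and was the most abundant of the 63 genes, had 218, 212, 226, 208 and 208 FPKM in CON and 201, 224, 188, 205 and 179 in HG. The groups overlapped, and its change of -0.11 ± 0.0543 did not pass on deposited FPKM (adjusted p = 0.132, limma). It did with the factors (-0.20, adjusted p = 0.0261) and without HG replicate 2 (-0.15). Atp6v0d1 and Atp6v0e1, whose promoters hold the element shown above, had changes of -0.07 (adjusted p = 0.181) and -0.12 (adjusted p = 0.0797) on deposited FPKM, and -0.16 (adjusted p = 0.0115) and -0.21 (adjusted p = 0.0133) with the factors.

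**Figure D4:**
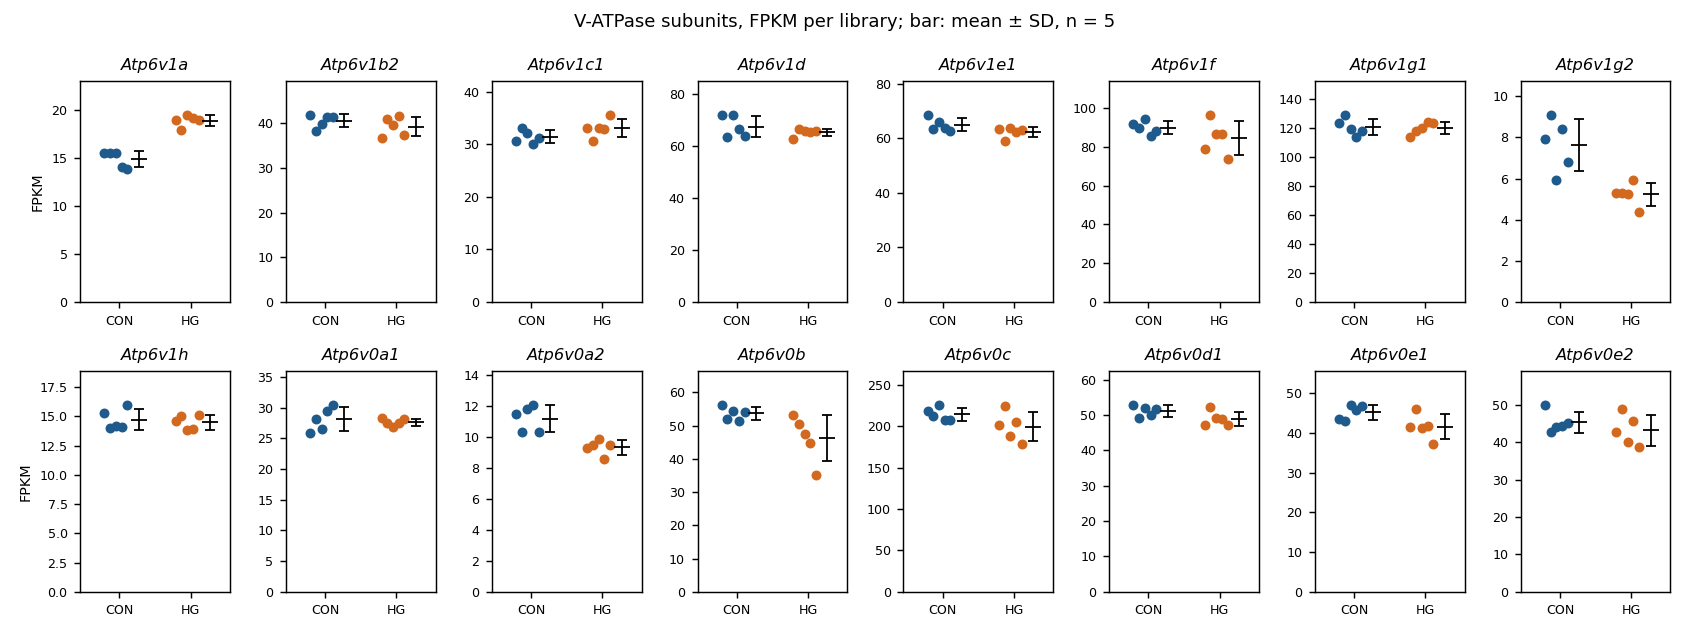
FPKM in each library (points) of the 16 V-ATPase subunit genes under the symbol rule whose mean reached 1 FPKM. Mean ± SD stand beside them, and each axis starts at 0. Atp6v1a is higher in every HG library (17.9 to 19.5 against 13.8 to 15.5 FPKM), Atp6v1g2 and Atp6v0a2 are lower, and the other subunits overlap between groups.

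Of the 6 initiation genes, Ulk2 alone was called on deposited FPKM, where 40.1% of all tested genes were called, and with the factors Atg13 and Ulk1 were called lower instead. Ulk2 encodes 1 of the pair of kinases that start autophagy when mTORC1 is inactive. It had 6.04, 6.89, 6.75, 6.83 and 6.19 FPKM in CON and 7.06, 7.41, 8.37, 7.1 and 7.3 in HG. The groups did not overlap. The change was 0.18 ± 0.0633 (adjusted p = 0.0354, limma). It was 0.09 (adjusted p = 0.257) with median-of-ratios factors, and leaving out any 1 of CON replicates 1 and 5 or HG replicates 2 and 3 gave adjusted p-values of 0.0567 to 0.0881. Its partner kinase gene Ulk1 had 9.56 to 11.1 FPKM in CON and 8.94 to 10.3 in HG, with -0.15 (adjusted p = 0.0543) on deposited FPKM and -0.24 (adjusted p = 0.00483) with the factors. Atg13, a scaffold of the ULK complex, had 14.6 to 16.2 FPKM in CON and 12.3 to 15.6 in HG, with -0.15 (adjusted p = 0.0717) and -0.24 (adjusted p = 0.00629). Ulk2 was 35.2 to 41.9% of the FPKM of the pair in CON and 41.5 to 46.6% in HG. Atg101, a partner of ATG13 and the most abundant initiation gene, had 21.2 to 25 FPKM in CON and 21 to 24.8 in HG, with a change of -0.01 (adjusted p = 0.912).

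Becn1, which encodes Beclin 1 of the lipid kinase complex, had 52.9, 57.6, 50.9, 49.1 and 52.9 FPKM in CON and 54.2, 53.5, 54.5, 56.4 and 53.4 in HG. The HG libraries lay inside the CON range, and the change of 0.05 ± 0.0421 did not pass the test (adjusted p = 0.397, limma), with a 95% interval of -0.04 to 0.14. Of the 5 genes in the nucleation and lipid class only 1 was called, on both scales. The share called over all tested genes was 40.1% on deposited FPKM and 33.2% with the factors. The called gene was Atg9a, the scramblase carried on the vesicles that seed the membrane. It had 20.5, 21.2, 23.1, 22.2 and 22.8 FPKM in CON and 18.8, 20.2, 20.7, 18.3 and 18.7 in HG. HG replicate 3 lay just above CON replicate 1, and the change was -0.19 ± 0.0486 (adjusted p = 0.00958, limma).

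Of the 11 conjugation genes, Atg4d was lower and Atg12 higher in HG on deposited FPKM, against 11.8% and 28.4% of all tested genes. With the factors 1 was lower, again Atg4d, and 0 were higher, against 17.5% and 15.6%. Atg4d encodes 1 of the 4 proteases that trim ATG8 proteins, and had 22.4, 20.5, 20.8, 20.1 and 19.5 FPKM in CON and 17.8, 18.3, 17.9, 17.2 and 17.7 in HG. The groups did not overlap, and the change was -0.21 ± 0.0426 (adjusted p = 0.00192, limma). Of the other proteases, Atg4b had 10.7 to 11.2 FPKM in CON and 10.9 to 11.3 in HG, and none of the other 3 was called on either scale. Atg12, the ubiquitin-like protein joined to ATG5, had 13.8, 13.7, 13, 12.4 and 13.2 FPKM in CON and 13.3, 14.9, 15.6, 16.4 and 16.1 in HG. HG replicate 1 lay within the CON range. The change was 0.20 ± 0.0588 (adjusted p = 0.0161, limma), and 0.11 (adjusted p = 0.158) with the factors. Atg5, Atg7 and Atg3, the core of the conjugation route, had changes of -0.01, -0.02 and 0.03 and none was called on either scale. Atg3, the enzyme that passes ATG8 proteins to lipid, was the most abundant of the class at 24.9 to 26.3 FPKM in CON and 23 to 29.2 in HG.

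Genes of the same pathways outside the symbol rule were counted in the same way, with no test between lists. Of 95 other tested genes of the KEGG Lysosome pathway, 39 were higher (41.1%) and 4 lower (4.21%) in HG, against the background of 28.4% and 11.8%, with a median log2 fold change of 0.15. With median-of-ratios factors 18 were higher (18.9%, background 15.6%) and 9 lower (9.47%, background 17.5%). The lowest adjusted p-values there belonged to Acp5, tartrate-resistant acid phosphatase, at 4.07 ± 0.401 FPKM in CON and 8.08 ± 0.781 in HG (log2 fold change 0.97, adjusted p = 6.79e-06), and to Igf2r, the receptor that sorts enzymes to the lysosome, at 232 ± 13.4 and 323 ± 9.41 (0.48, adjusted p = 7.56e-06). Of 104 other tested genes of KEGG Autophagy, 25 were higher (24%, background 28.4%) and 6 lower (5.77%, background 11.8%). With the factors 10 were higher (9.62%, background 15.6%) and 21 lower (20.2%, background 17.5%). Tp53inp2, which binds LC3, had the lowest adjusted p of these, at 38.5 ± 2.87 FPKM in CON and 26.2 ± 1.83 in HG (-0.55, adjusted p = 2.85e-05).

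The lists by function were short, and are read against the same backgrounds of 28.4% higher and 11.8% lower on deposited FPKM and of 15.6% and 17.5% with the factors. Lysosomal hydrolases and activators other than cathepsins were higher for 16 of 35 genes (45.7%) and lower for 3 (8.57%), and with the factors for 9 (25.7%) and 4 (11.4%). That list also holds Npc2, a carrier that moves cholesterol out of the lysosome, at 48.5 ± 3.22 FPKM in CON and 61.4 ± 2.05 in HG (0.34, adjusted p = 0.000159). Other lysosomal membrane proteins were higher for 7 of 19 (36.8%) and lower for 1 (3 and 3 with the factors, 15.8% each), led by the sialic acid exporter Slc17a5 at 1.82 ± 0.158 and 2.97 ± 0.421 (0.67, adjusted p = 0.000401) and by Laptm4b (0.26, adjusted p = 0.000887). Cargo receptors other than Sqstm1 were lower for 4 of 11 (36.4%) and higher for 0, and with the factors lower for 6 (54.5%) and higher for 0, with Ncoa4, the receptor for ferritin, at 46.5 ± 3.73 and 37.1 ± 2.67 (-0.33, adjusted p = 0.00142) and Optn, optineurin, at -0.33 (adjusted p = 0.00201). Of 14 fusion genes 3 were higher (21.4%) and 1 lower (7.14%), and 2 and 3 with the factors, with the tethering genes Vps16 at 0.28 (adjusted p = 0.000847) and Vps41 at 0.24 (adjusted p = 0.00187).

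The MiT/TFE and nutrient-sensing list had 2 higher and 2 lower of 19 (10.5% each), and 0 higher and 8 lower (42.1%) with the factors. Its lowest adjusted p was for Flcn, folliculin, which keeps TFEB out of the nucleus in fed cells, at 40.2 ± 2.05 FPKM in CON and 30.5 ± 2.02 in HG (-0.40, adjusted p = 0.000112, limma). The list of V-ATPase genes outside the symbol rule holds accessory genes and also Tcirg1, which encodes another form of subunit a. Of its 14 genes 1 was higher (7.14%) and 2 were lower (14.3%), and 0 and 3 with the factors. In it Oxr1 (-0.30, adjusted p = 0.000988) and Rnasek (-0.24, adjusted p = 0.0024) fell. Other initiation and PI3P genes had 1 higher and 1 lower of 13 (7.69% each; 0 and 2 with the factors), which were Pik3c3, the lipid kinase of the Beclin 1 complex (0.20, adjusted p = 0.0214), and Tmem41b (-0.17, adjusted p = 0.0344). Of the 7 tested cathepsin inhibitors 1 was called in each direction on both scales, and on deposited FPKM Serpinb9 was higher (0.48, adjusted p = 0.00779) and Cstb, cystatin B, lower (-0.24, adjusted p = 0.0143).

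**Figure D5:**
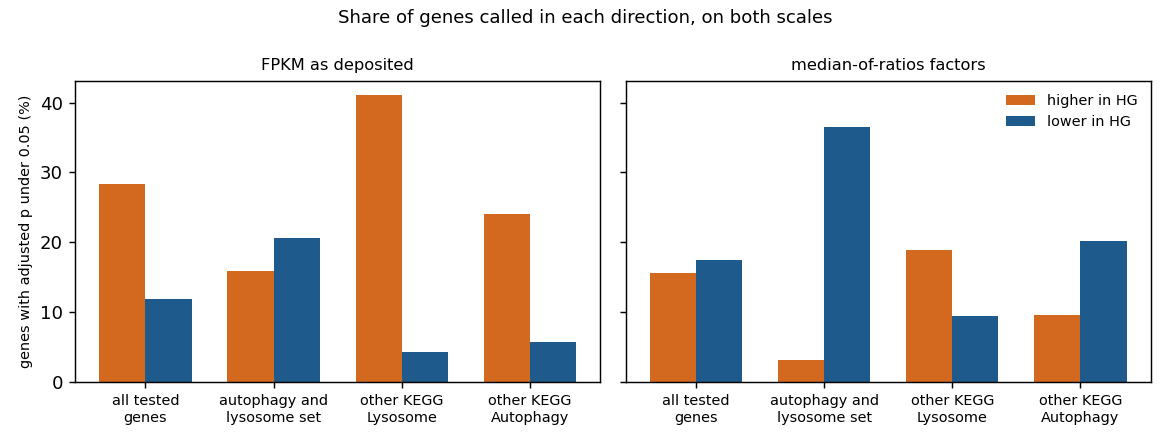
Percent of genes with an adjusted p under 0.05 that were higher (orange) or lower (blue) in HG, for all tested genes, the 63 autophagy and lysosome genes and the other genes of KEGG Lysosome and KEGG Autophagy, on deposited FPKM (left) and with median-of-ratios factors (right). The 63 genes show 15.9% higher and 20.6% lower on the left and 3.17% and 36.5% on the right, and the shares of the other groups shift in the same way.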

How the data were processed

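Per the labels, RNA of 10 fetal rat heart samples was sequenced as stranded mRNA libraries. The study's methods instead speak of 1 library from the RNA of these samples combined. The deposited table has 10 columns that differ, and each was taken as 1 library, but whether SDs and p-values measure separate hearts rests on the labels. The submitters' processing notes name fastp, HISAT2, HTSeq, R 3.2.0 and the build mRatBN7.2, without their roles, and the authors deposited 1 table of FPKM per gene and library, which is normalized for gene length and library total. All per-sample columns were used (0 left out). FPKM steps gave whole reads for 99.99% of genes within a tolerance of 0.02 reads. The study's methods describe a count-based test. Since the deposited FPKM values are not counts, the test here was limma 3.58.1 (R 4.3.3) with a trended variance on log2(FPKM + 0.1), CON against HG, so fold changes of low genes are understated. The script was tested on simulated data. Alternatives were median-of-ratios factors, quantile normalization, other pseudocounts (0.01, 1) and filters (none, 1 FPKM), hemoglobin genes left out, array weights, no trend, a covariate from Y chromosome genes, voom on the recovered reads, a replicate block and each library left out in turn.

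Members and lists were chosen with earlier results of these data known. Genes named were those listed by full symbol in the rule, called genes with an absolute log2 fold change above 0.5, and in each role the called gene with the largest increase, that with the largest decrease and the most abundant gene, with the 2 called genes of smallest adjusted p in each outside list. For 1 of these lists a single gene is given, and the other is not reported here. Others (Ctsd, Ctsl, Ctsa, Ctsz, Ctsc, Ctss, Ulk1, Atg13, Atp6v1b2, Atp6v0a1, Atp6v0d1, Atp6v0e1, Atg4b, Atg5, Atg7, Atg10, Atg14 and Tfe3 beside Tfeb) were added after their values were seen. KEGG membership was read from the pathway column of the deposited table. Promoters (RefSeq, GRCr8) were matched by gene, and no coordinates were moved between builds. Tables were made with Python 3.11.15, pandas 2.3.3 and matplotlib 3.10.9.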

Additional observations from a re-analysis of the deposited data

Results flagged for a closer look

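Among the named genes, 50 groups of 5 libraries were searched for a single library far from the other 4, and 3 had one, where chance alone gives about 1 in 20 groups. Lamp1 was at 129 FPKM in CON replicate 3, against 114 to 118 in the other CON libraries. Atg3 was at 26.3 FPKM in the same library, against 24.9 to 25.1. CON replicate 3 is also the library with 80.7 FPKM of liver markers, and whether that bears on Lamp1 or Atg3 was not tested. Ulk2 was at 8.37 FPKM in HG replicate 3, against 7.06 to 7.41 in the other HG libraries, and without that library its difference had an adjusted p = 0.0881 (limma).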

How the results depend on the processing

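In all 22 alternative settings 11 genes were called in the same direction: Atg4d, Atg9a, Atp6v0a2, Atp6v1a, Atp6v1g2, Ctsd, Ctsf, Gabarapl1, Lamp1, Map1lc3a and Map1lc3b. The same share over all tested genes is not given here, so the count describes single genes and not the set. No named gene changed sign while called. Against 10 genes called higher and 13 lower, median-of-ratios factors gave 2 and 23, and quantile normalization gave 4 and 19, since both scalings lower the HG values of the typical gene. Leaving out 1 library at a time gave 19 to 24 called genes, 6 to 9 higher and 12 to 16 lower, and the 6 came without HG replicate 2 and without HG replicate 3. Past the stricter rule there was 1 gene, Lamp3, with a pseudocount of 0.01, with voom on recovered reads and without CON replicate 5, so the range over left-out libraries was 0 to 1. With the replicate number as a block 18 genes were called, 7 higher and 11 lower, with adjusted p-values of 0.0501 to 0.0553 for Gabarapl2, Tfeb, Sqstm1, Ctsb and Ctsc. Deviations of libraries that share a number correlated at -0.126 to 0.108, so the numbers were not taken as pairs. Depth limits most of the 9 genes under 1 FPKM, and Lamp3 rested on 0 to 13 reads per library. Atg7 and Atg10 are among the 9 but had 143 to 184 and 183 to 258 reads per library.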
